A study of Mus musculus with 80 samples.

Results

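The mitochondrial ribosomal protein (MRP) genes were taken as every gene symbol made of Mrpl or Mrps followed by a number, which gave 77 genes of the 32764 in the count tables, 48 with Mrpl symbols and 29 with Mrps symbols. The letters l and s stand for the large and the small subunit, but Mrps18a and Mrps30 are proteins of the large subunit, and Mrps36 was put in neither. No measured value entered this choice. Of the 77 genes, 76 passed the filter on low counts in each of the 4 tissues, and Mrpl53 (large subunit) had a count of 0 in all 80 libraries. A count of 0 allows up to 3 reads, or 0.105 CPM in the shallowest library, where CPM is counts per 1000000 counts of the library. This limit holds for reads assigned to a gene by the counting, and is no limit on the expression of Mrpl53. Why that gene had no counts was not tested.

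Mitochondria carry their own ribosome, the mitoribosome, which makes the few respiratory chain and ATP synthase proteins that mitochondrial DNA encodes. Its RNAs come from mitochondrial DNA, whereas all of its proteins are encoded by nuclear genes, made in the cytosol and imported. Brown fat is rich in mitochondria, where UCP1 uncouples respiration to give heat, and white fat that turns brown gains mitochondria. FGF21 is a hormone that stressed fat and liver can secrete.

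Poly(A)-selected, stranded RNA-seq libraries were made from interscapular brown fat (BAT), inguinal white fat (iWAT), liver and muscle of homozygous male mice on a C57BL/6J background. The 4 genotypes were wild type (WT), FGF21 KO, UCP1 KO and the double knockout of both genes (dKO, written UCP1/FGF12 in the series text and read here as UCP1 and FGF21), with 5 libraries for each tissue and genotype. All mice were bred and weaned at 30 °C, moved at 10 to 12 weeks of age to room temperature and a high-fat diet for 3 weeks, and sampled after a short food withdrawal. The knockouts are whole-body, so that a response in one tissue need not start there, and the labels do not link libraries of the same mouse.

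The libraries held 28691377 to 50380696 gene counts (median 38022853), and no pair held identical values. In BAT, Ucp1 had 98548 to 216085 counts in WT and still 24291 to 60779 in UCP1 KO, whose allele the labels do not describe. In iWAT, Ucp1 had 109 to 776 counts in WT and 3942 to 20264 in UCP1 KO, so its level there does not check the label. Fgf21 had at most 3 counts in every FGF21 KO and dKO library of BAT, iWAT and liver, against 353 to 1728 in BAT and 23 to 385 in iWAT of UCP1 KO mice. The 10 skeletal muscle markers, none at 0 in a whole group, summed to 27.9 to 133 CPM in BAT of WT mice, 30.8 to 451 in FGF21 KO, 76.9 to 11648 in UCP1 KO and 113 to 5766 in dKO. In iWAT, 9 of 20 libraries (WT 4 and 5, FGF21 KO 1, 3, 4 and 5, UCP1 KO 2, dKO 1 and 3) had a lymph node score, the mean log2(CPM + 0.1) of 7 lymphocyte genes, of 6.38 to 7.29, and the other 11 had -0.34 to 1.75. The skeletal muscle score, formed likewise, was highest in iWAT in UCP1 KO library 1 (10.4) and WT library 5 (9.71), and its part in the iWAT results was not tested. Results in BAT are given also with the skeletal muscle score in the model, and those in iWAT with the lymph node score or without the libraries high in it.

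Many MRP genes start close to a neighbour. By the GENCODE annotation of GRCm38, 31 of the 77 (40.3%) start within 1000 bases of a protein-coding gene read in the opposite direction, against 10.6% of 19917 protein-coding genes. RefSeq promoter windows of GRCm38.p6 matched 68 of the 77 genes, and the exact core of the ETS family, which includes the mitochondrial biogenesis factor GABP, written CCGGAAG and searched on both strands, was in 36.8% of them against 9.93% of all promoters and 13.4% of those of protein-coding genes. The core of NRF1, another biogenesis factor, written GCATGCGC, was in 11.8% against 3.05% and 4.21%, and the YY1 core AAGATGGC in 17.6% against 3.19% and 3.72%. The E-box CACGTG was in 7.35% against 8.09% and 9.33%, and TCAAGGTCA, the core of the estrogen-related receptors, in 0 of the 68 against 0.466% and 0.359%. The 4 stretches here end at or near the start of RefSeq transcripts of genes whose BAT levels fell (Mrpl33, Mrpl34, Mrpl22) or rose (Mrps18a) without UCP1, each of 130 bases on the + strand, with the ETS core CCGGAAG or the NRF1 core in capitals, the latter read from the opposite strand as GCGCATGC.
Mrpl33, chr5:31613821-31613950: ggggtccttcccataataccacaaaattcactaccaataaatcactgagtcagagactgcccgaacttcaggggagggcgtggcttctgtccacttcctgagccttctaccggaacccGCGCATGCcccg
Mrpl34, chr8:71464796-71464925: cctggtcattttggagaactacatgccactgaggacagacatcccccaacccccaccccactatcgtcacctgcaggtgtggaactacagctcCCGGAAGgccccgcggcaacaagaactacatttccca
Mrpl22, chr11:58171534-58171663: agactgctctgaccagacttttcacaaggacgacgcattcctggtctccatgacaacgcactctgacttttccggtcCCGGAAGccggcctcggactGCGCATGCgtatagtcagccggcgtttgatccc
Mrps18a, chr17:46110874-46111003: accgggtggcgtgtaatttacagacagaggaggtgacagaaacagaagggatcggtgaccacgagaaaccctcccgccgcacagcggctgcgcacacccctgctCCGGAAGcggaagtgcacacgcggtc
The Mrpl33 stretch lies within the longer GENCODE span of that gene (chr5:31596935-31664384). These matches are letters in a window and not measured binding. For UCP1 KO against WT in BAT, the median log2 fold change of members with and without the ETS core was -0.11 and -0.15. For the NRF1 core it was -0.23 and -0.13, and for the YY1 core -0.10 and -0.14. In iWAT the medians were 0.43 and 0.47 (ETS), 0.44 and 0.45 (NRF1), and 0.45 and 0.46 (YY1). Whether a motif goes with the response was not tested.

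In WT mice the MRP genes were highest in BAT, and lowest in iWAT with TMM scaling but in liver as a share of all counts. That share was 0.390 to 0.411% in BAT, 0.256 to 0.289% in muscle, 0.221 to 0.235% in iWAT and 0.172 to 0.207% in liver. For the levels that follow, counts were scaled by TMM factors, which assume that most genes do not differ, and divided by exon length where genes are compared with each other. The median gene had 21.7 CPM per kilobase of exon in BAT, 15.8 in muscle, 13.0 in liver and 7.90 in iWAT, and of the 76 genes 54 were highest in BAT, 18 in muscle, 4 in liver and 0 in iWAT. iWAT was lowest for 72 on this scale. Within a tissue the highest member exceeded the lowest by 19.98-fold (iWAT) to 41.4-fold (muscle), although the proteins join one particle. The exon length used joins all annotated exons of a gene, and was 607 bases for Mrpl34 and 8631 for Mrps35. This spread and the order of genes within a tissue therefore depend on that length as well as on the counts.

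**Figure D1:**
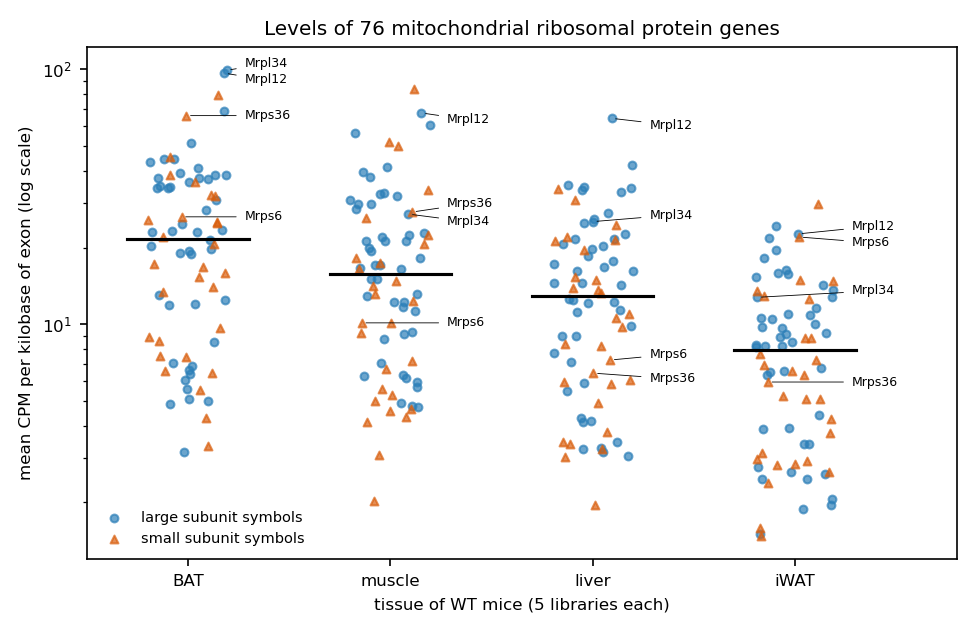
Mean level of the 76 tested MRP genes in 4 tissues of WT mice (5 libraries each), in TMM-scaled CPM per kilobase of exon on a log scale, with circles for large subunit and triangles for small subunit symbols and a bar at the median. The median falls from 21.7 in BAT to 7.90 in iWAT, whose order against liver flips with scaling by totals, Mrpl12 is near the top in each tissue, and Mrps36 and Mrps6 change place between tissues.

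In BAT the highest per kilobase of exon were Mrpl34 at 99.2 ± 9.8, Mrpl12 at 96.7 ± 6.0 and Mrps21 at 79.3 ± 2.9 CPM per kilobase (SD, n = 5), and the lowest were Mrpl23 at 3.15, Mrps10 at 3.34 and Mrps26 at 4.28. Mrpl12, a protein of the stalk on which translation factors act, was also highest in liver at 64.3 ± 7.5 and among the 3 highest in muscle and iWAT, at 67.5 and 22.6. Mrps21 led in muscle at 83.7 ± 2.2 and in iWAT at 29.6 ± 3.6 CPM per kilobase. Mrpl27 was among the 3 highest in iWAT (24.4) and liver (42.1), Mrpl24 in liver (35.1) and Mrpl42 in muscle (60.6). The lowest 3 were Mrps10, Mrpl47 and Mrps35 in iWAT at 1.48 to 1.59, Mrps25, Mrps35 and Mrpl23 in liver at 1.96 to 3.05, and Mrps35, Mrps10 and Mrps30 in muscle at 2.02 to 4.12.

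In the edgeR quasi-likelihood test at a Benjamini-Hochberg adjusted p under 0.01, BAT exceeded iWAT in 75 of 76 genes and fell below it in 0, against 28% higher and 32.7% lower among the 16886 genes tested, with a median log2 difference of 1.42 (all genes -0.10). BAT against liver gave 57 higher and 3 lower (all genes 34.8% and 32.5%), and BAT against muscle 39 and 9 (32.3% and 31.8%). Muscle exceeded iWAT in 70 genes and was lower in 1 (33.2% and 41.2%). Liver against muscle gave 14 higher and 38 lower (35.2% and 38.6%). Liver exceeded iWAT in 65 and was lower in 1 (36.6% and 38.2%), and this direction flipped to 12 higher and 43 lower when libraries were scaled by their totals alone. That scaling moved the median of all genes to -1.13 for liver against iWAT, -1.21 for muscle against iWAT and -0.84 for BAT against iWAT. Relative to that median the MRP medians were 0.82, 1.34 and 1.53. With TMM they were 0.77, 1.11 and 1.42, taken from 0 and not from the median of all genes, which was -0.10 for BAT against iWAT.

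Mrps36, now known as a component of the 2-oxoglutarate dehydrogenase complex of the citric acid cycle, had the widest range. Its levels in the 5 WT libraries were 78.7, 83.6, 85.8, 84.3 and 87.2 CPM in BAT, 35.3, 33.1, 35.0, 34.3 and 37.9 in muscle, 7.65, 10.2, 7.52, 7.98 and 7.57 in liver, and 8.25, 9.24, 7.21, 6.89 and 6.22 in iWAT. BAT and muscle stood apart from each other and from the rest, whereas liver and iWAT overlapped. Its log2 difference between BAT and iWAT was 3.47 ± 0.10 (SE, edgeR adjusted p = 1.1e-15).

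Mrpl34, a small protein of the large subunit, had 51.6, 61.6, 66.5, 57.2 and 64.2 CPM in BAT against 8.23, 7.62, 8.51, 7.87 and 6.49 in iWAT, a log2 difference of 2.96 with no overlap. Mrps6 had 46.9, 45.2, 37.7, 38.5 and 34.0 CPM in BAT and 43.3, 45.2, 38.6, 24.2 and 17.5 in iWAT. These overlapped, and it was the 1 member not called (log2 difference 0.26, edgeR adjusted p = 0.24). Mrps6 shares 29152 bases of its locus with Slc5a3 on the same strand, so the assignment of their reads is uncertain. The 2 low iWAT libraries of Mrps6 are those of WT with a high lymph node score.

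In BAT, loss of UCP1 shifted a minority of MRP genes in both directions. Between UCP1 KO and WT, 5 of 76 rose (all 15729 genes tested, 13.8%) and 18 fell (11.4%), by at most 1.63-fold, and the median log2 change was -0.10 (all genes 0.01). The libraries of both genotypes did not overlap for 21 members, 6 higher and 15 lower (all genes 23.5%). Of the 76 members, the 23 called included, 42 had an unadjusted p under 0.05, as had 7699 of all genes.

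Of the members that fell, Mrpl34 had 54.5, 65.2, 70.0, 60.4 and 67.6 CPM in WT and 49.6, 40.7, 44.1, 32.05 and 28.1 in UCP1 KO. Every UCP1 KO library was below every WT library (log2 fold change -0.71 ± 0.13, edgeR adjusted p = 0.000413). Mrps21, in the small subunit and conserved from bacteria, had 60.0, 61.1, 60.7, 61.5 and 65.7 CPM in WT and 50.2, 41.7, 42.5, 34.8 and 32.3 in UCP1 KO. These did not overlap either (-0.62 ± 0.09, edgeR adjusted p = 6.39e-05). Mrpl18, which in bacteria binds the 5S ribosomal RNA, had 61.2, 65.8, 65.7, 60.3 and 66.3 CPM in WT and 57.6, 41.5, 42.6, 42.6 and 34.1 in UCP1 KO (-0.55 ± 0.09). UCP1 KO library 1 was the highest of its group for all 3 genes.

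Large subunit genes with smaller falls and no overlap were Mrpl49 (-0.45), Mrpl39 (-0.45), Mrpl11 (-0.44), Mrpl9 (-0.38), Mrpl33 (-0.38) and Mrpl42 (-0.34), and the small subunit gene Mrps15 fell by 0.51 on the log2 scale. Mrps36 had 83.1, 88.6, 90.3, 88.9 and 91.9 CPM in WT and 96.0, 51.8, 61.9, 59.7 and 45.9 in UCP1 KO. It was called (log2 fold change -0.49, edgeR adjusted p = 0.00759) although library 1 of UCP1 KO was above all WT libraries. Mrpl12, the abundant stalk protein, changed by -0.25 (edgeR adjusted p = 0.0526) and was not called, nor was Mrps30, which despite its symbol sits in the large subunit (0.17, edgeR adjusted p = 0.0988).

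The members that rose were Mrpl19, Mrps10, Mrps18b, Mrps18a and Mrpl1. Mrpl19, a large subunit protein conserved from bacteria, had 29.4, 30.7, 28.5, 26.5 and 28.5 CPM in WT and 44.7, 34.3, 41.3, 41.7 and 49.3 in UCP1 KO (0.56 ± 0.08, edgeR adjusted p = 5.13e-05). Mrps10, of the small subunit head, had 27.1, 29.0, 28.1, 30.2 and 28.2 CPM in WT and 49.4, 36.4, 43.8, 39.4 and 34.9 in UCP1 KO (0.52 ± 0.07). All UCP1 KO libraries exceeded all WT libraries for both genes, and Mrpl1 rose by 0.36.

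Mrps18a, Mrps18b and Mrps18c descend from one bacterial protein, the first placed in the large subunit and the others in the small. Mrps18b had 37.6, 38.7, 36.5, 38.4 and 38.0 CPM in WT and 66.1, 45.8, 55.0, 51.4 and 50.7 in UCP1 KO, with no overlap (0.51 ± 0.08). Mrps18a had 50.3, 49.0, 55.5, 53.3 and 51.9 CPM in WT and 79.3, 56.9, 67.3, 62.5 and 66.5 in UCP1 KO, again without overlap (0.35 ± 0.07). Mrps18c had 27.96, 27.5, 29.6, 27.6 and 28.6 CPM in WT and 31.5, 25.4, 25.6, 23.9 and 22.7 in UCP1 KO, groups that overlapped (-0.13, edgeR adjusted p = 0.165).

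**Figure D2:**
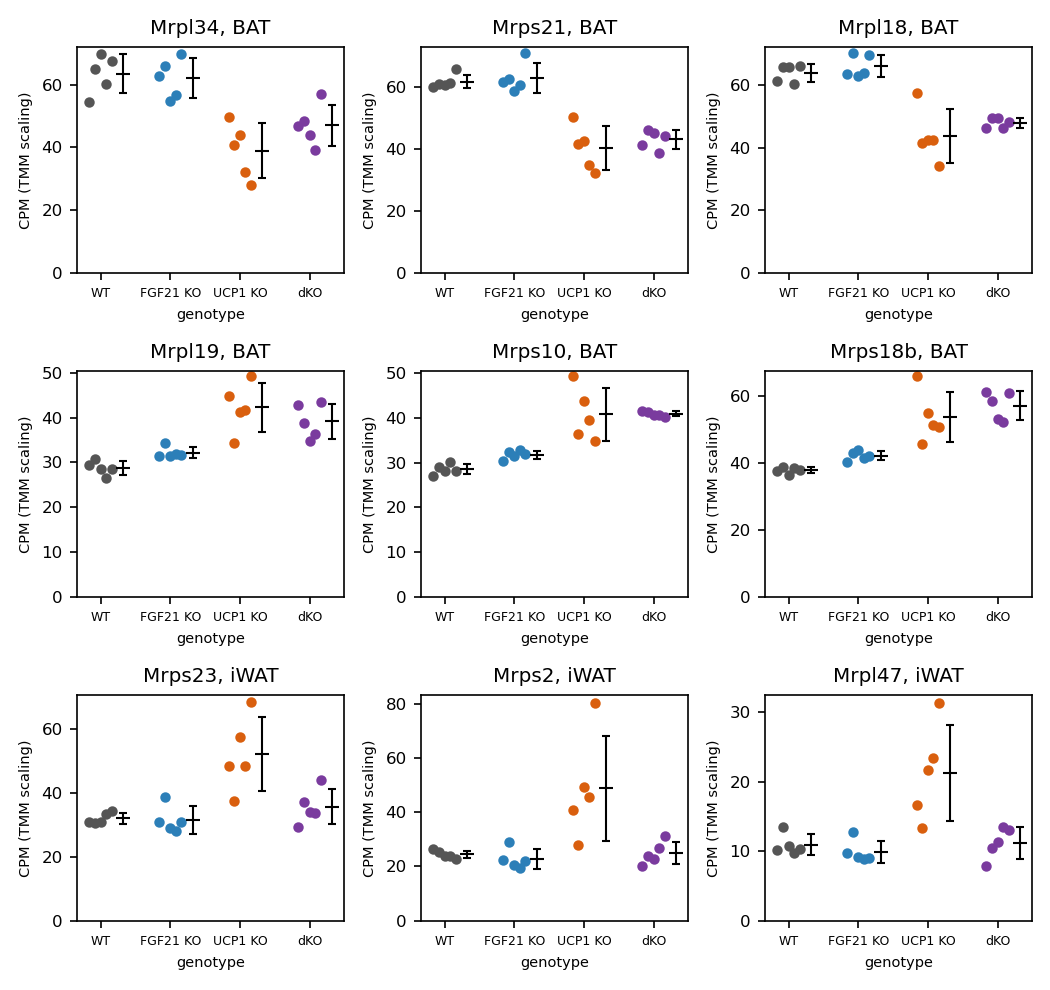
CPM with TMM scaling within the tissue in each library of 4 genotypes (points), with mean ± SD (bars, n = 5), for 6 genes in BAT and 3 in iWAT. Mrpl34, Mrps21 and Mrpl18 are lower and Mrpl19, Mrps10 and Mrps18b higher in UCP1 KO than in every WT library of BAT, with dKO near UCP1 KO, whereas in iWAT dKO sits near WT.

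How many fell depended on the scaling. The 3 most abundant rows of the tables, named by accession, held 15.01 to 16.4% of all counts in WT and 14.9 to 16.1% in FGF21 KO, but 4.56 to 8.67% in UCP1 KO and 3.28 to 10.9% in dKO. As a share of all counts the 77 genes made up 0.390 to 0.411% in WT, 0.384 to 0.428% in FGF21 KO, 0.409 to 0.464% in UCP1 KO and 0.432 to 0.462% in dKO. As a sum of TMM-scaled CPM they came to 4321 ± 82 in WT, 4391 ± 229 in FGF21 KO, 3940 ± 440 in UCP1 KO and 4240 ± 137 in dKO (SD, n = 5). The family's mean share of counts was thus higher in UCP1 KO and dKO than in WT, with an overlap of the UCP1 KO and WT libraries, while its mean scaled sum was lower in both, again with an overlap, and UCP1 KO library 1 (4636) lay above every WT library.

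With totals alone, 29 members were called higher and 3 lower, where all genes gave 5235 higher and 455 lower of 15729, and the family median became 0.19, at a median of all genes of 0.31. Relative to all genes the median was -0.12 with totals and -0.11 with TMM. The 3 still called lower were Mrpl34 (-0.43), Mrps21 (-0.34) and Mrpl18 (-0.27), and the rises of Mrpl19, Mrps10, Mrps18b and Mrps18a held in every alternative run. The count of 18 that fell (all genes 1796) became 11 without WT library 1, WT library 2 or UCP1 KO library 4 (all genes 1481, 1421 and 1464), and 29 without UCP1 KO library 1 (all genes 2155). With the skeletal muscle score in the model, Mrpl1 (edgeR adjusted p = 0.0114) lost its call, and those of Mrpl34, Mrps21, Mrpl18, Mrps15, Mrpl49, Mrpl39, Mrpl11, Mrpl9, Mrpl33, Mrpl42, Mrpl19, Mrps10, Mrps18b and Mrps18a stayed. The call of Mrpl1 was also lost in the fit of both genotypes alone (edgeR adjusted p = 0.0245) and without WT library 3, 4 or 5 or UCP1 KO library 1, 3 or 4 (0.0123 to 0.0188). Mrpl39 lost its call in the fit of both genotypes alone (edgeR adjusted p = 0.0105) and with totals alone (0.0469). Mrpl42 lost its call in the fit of both genotypes alone (edgeR adjusted p = 0.0218), with totals alone, and without WT library 1, 2 or 5 or UCP1 KO library 4 (0.0114 to 0.0126). Macrophage markers summed to 104 to 128 CPM in WT and 153 to 423 in UCP1 KO, 4 of 6 higher, and their part in the result was not tested. In bulk tissue, fewer cells of a type and less RNA per cell cannot be told apart.

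**Figure D3:**
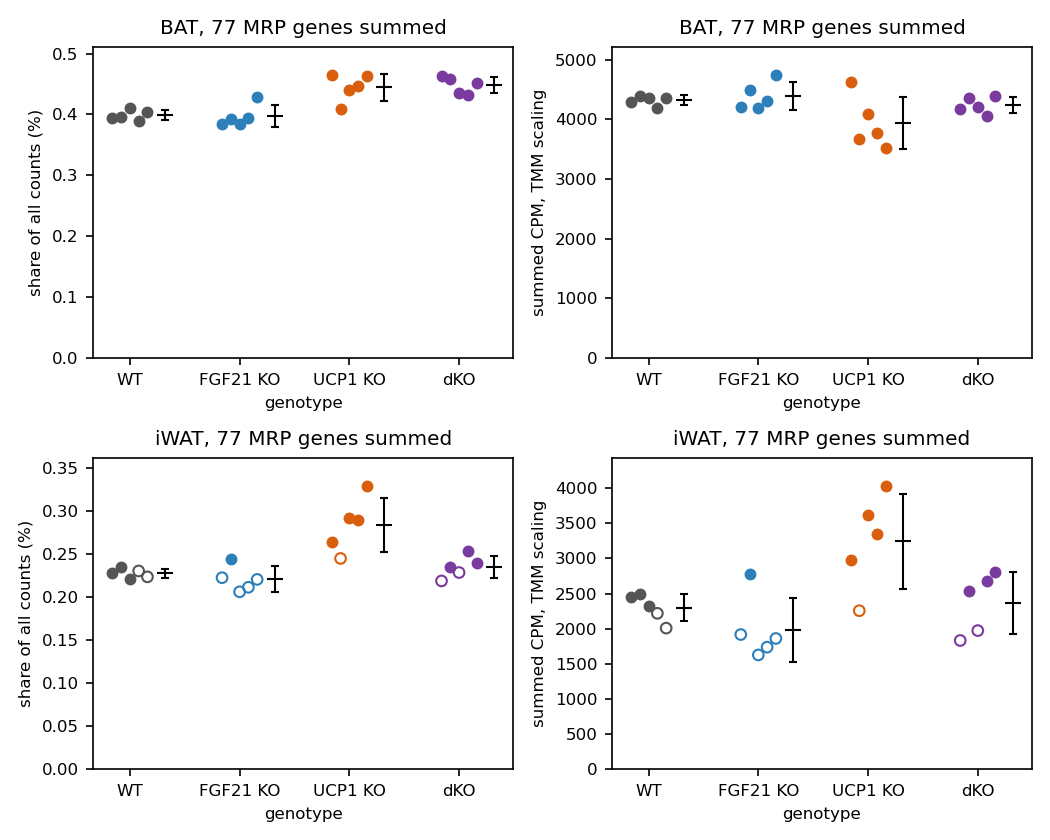
Summed level of the 77 MRP genes in each library of BAT (top) and iWAT (bottom), as percent of all counts (left) and as summed CPM with TMM scaling (right), with mean ± SD (n = 5); open points are iWAT libraries with a lymph node score above 4. In BAT the mean share of counts is higher in UCP1 KO and dKO than in WT and the mean scaled sum is lower, whereas in iWAT the mean of UCP1 KO is highest on both scales.

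The same loss of UCP1 in mice lacking FGF21 was read from dKO against FGF21 KO. Its groups hold other libraries than those of UCP1 KO against WT, but both contrasts come from one model with a shared scaling and estimate of spread. In it 3 members rose (all genes 6.74%) and 8 fell (6.8%), and all 11 were also called in UCP1 KO against WT in the same direction, 47.8% of the 23 called there. Mrps21 had 61.7, 62.6, 58.8, 60.6 and 71.0 CPM in FGF21 KO and 41.4, 46.1, 45.2, 38.6 and 44.3 in dKO (-0.55, edgeR adjusted p = 0.00038). Mrps10 had 30.3, 32.3, 31.5, 32.7 and 31.97 CPM in FGF21 KO and 41.6, 41.4, 40.7, 40.8 and 40.3 in dKO (0.37, edgeR adjusted p = 0.00132). Neither gene's groups overlapped, and Mrps18b (0.44), Mrps18a (0.34) and Mrpl18 (-0.47) were called too. Mrpl34 had 62.9, 66.2, 54.9, 56.9 and 69.9 CPM in FGF21 KO and 47.0, 48.3, 44.1, 39.1 and 56.9 in dKO, which overlapped (-0.40, edgeR adjusted p = 0.0292). Across the 76 genes, which are not independent replicates, the log2 fold changes of both comparisons correlated with r = 0.95 (all genes 0.88).

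With totals alone, dKO against FGF21 KO gave 28 higher and 2 lower (all genes 2722 and 274), at a median of 0.20 for the family and 0.23 for all genes. The 8 that fell (all genes 1069) became 4 without FGF21 KO library 5 (all genes 823), 5 without FGF21 KO library 3 or 4 or dKO library 1 (762, 683 and 765), and 2 with the skeletal muscle score in the model (535). In the comparisons that bear on FGF21 in BAT, 0 members were called between UCP1 KO and dKO (all genes 0.0636%; 9 at an unadjusted p under 0.05, each with a negative fold change; DESeq2 0), between FGF21 KO and WT (all genes 0%; 1; DESeq2 0), or in the interaction of both losses (all genes 0%; 3; DESeq2 0). dKO against WT gave 5 higher (all genes 11.1%) and 7 lower (10%).

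In iWAT the MRP genes had higher mean levels in mice with UCP1 KO than in those with WT or dKO genotype, but 0 passed the edgeR threshold. The TMM-scaled CPM of the family summed to 3244 ± 674 in UCP1 KO, 2299 ± 196 in WT, 2366 ± 437 in dKO and 1983 ± 458 in FGF21 KO (SD, n = 5), and UCP1 KO library 2 (2255) lay within the range of each of the others. Against WT the log2 fold change was positive for 76 of 76 genes, with a median of 0.46 (all genes -0.03), 57 had an unadjusted p under 0.05, and the smallest edgeR adjusted p was 0.0123 (all genes called, 0.61%). DESeq2 called 18 higher, among 545 higher of all genes, and edgeR 12 at an adjusted p under 0.05, among 402. Against dKO the median was 0.44, again with 76 of 76 positive and 0 called (all genes 0.466%; 51 at an unadjusted p under 0.05; DESeq2 15 higher, among 434 of all genes). Both comparisons share the UCP1 KO libraries.

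Mrps23, a small subunit protein, had 30.9, 30.6, 30.9, 33.3 and 34.4 CPM in WT, 48.5, 37.4, 57.6, 48.4 and 68.6 in UCP1 KO, and 29.4, 37.1, 33.8, 33.8 and 44.1 in dKO. UCP1 KO was above every WT library and overlapped dKO (0.70 ± 0.14 against WT, edgeR adjusted p = 0.0123). Mrps2, conserved from the bacterial small subunit, had 26.3, 25.2, 23.9, 23.8 and 22.8 CPM in WT, 40.7, 28.02, 49.3, 45.7 and 80.1 in UCP1 KO, and 20.3, 23.8, 22.8, 26.8 and 31.1 in dKO. It had log2 fold changes of 1.00 against WT (edgeR adjusted p = 0.0126) and 0.97 against dKO (edgeR adjusted p = 0.0177), with no overlap with WT.

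Mrpl47, of the large subunit, had 10.2, 13.5, 10.8, 9.77 and 10.2 CPM in WT, 16.6, 13.4, 21.7, 23.4 and 31.3 in UCP1 KO, and 7.78, 10.4, 11.3, 13.5 and 13.1 in dKO (0.96 against WT, edgeR adjusted p = 0.0149). Mrps36 had 13.3, 15.1, 11.8, 11.5 and 10.2 CPM in WT, 25.5, 14.4, 30.2, 27.98 and 44.8 in UCP1 KO, and 8.21, 13.2, 9.97, 15.4 and 13.996 in dKO (1.21 against WT, edgeR adjusted p = 0.0183; 1.23 against dKO, edgeR adjusted p = 0.0196). These WT values exceed those given with the tissues because here libraries were scaled within iWAT. In each of these 4 genes UCP1 KO library 2 was the lowest of its group, library 5 was the highest, and library 2 is the one of the group with a high lymph node score. Libraries of UCP1 KO and WT did not overlap for 5 members, Mrpl16, Mrpl19, Mrps18b, Mrps2 and Mrps23 (all genes 3.83%), and of UCP1 KO and dKO for Mrpl19 (all genes 2.09%).

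The spread between iWAT libraries was wide, with a median coefficient of variation of the members of 21.4% in UCP1 KO against 9.45% in WT. Without UCP1 KO library 2, edgeR called 12 members higher against WT and 15 against dKO, among 345 and 333 of all genes. Without FGF21 KO library 2 it called 3 and 1 (all genes 156 and 131), and without dKO library 4 it called 1 against dKO (all genes 62). With the lymph node score in the model 23 and 31 were called higher (all genes 540 and 590), at medians of 0.35 and 0.37. The 11 libraries with a low score gave 21 and 1 (all genes 560 and 134), at medians of 0.48 and 0.36. With totals alone the counts were 7 and 5 (all genes 213 and 177 higher) and the medians 0.28 and 0.25, at medians of all genes of -0.19 and -0.22.

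In mice without FGF21, the values for loss of UCP1 in iWAT were closer to 0. The comparison of dKO against FGF21 KO had a median of 0.25 and 0 called (all genes 0.0115%; 8 at an unadjusted p under 0.05; DESeq2 0). Among libraries low in lymph node transcripts, where FGF21 KO keeps 1 library, that median was -0.07. The interaction called 0 members (all genes 0%; 9 at an unadjusted p under 0.05; DESeq2 0), so a difference between the responses with and without FGF21 did not pass the test gene by gene. FGF21 KO against WT called 0 (all genes 0.00575%; 4; DESeq2 0), as did dKO against WT (all genes 0.0173%; 0; DESeq2 0).

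**Figure D4:**
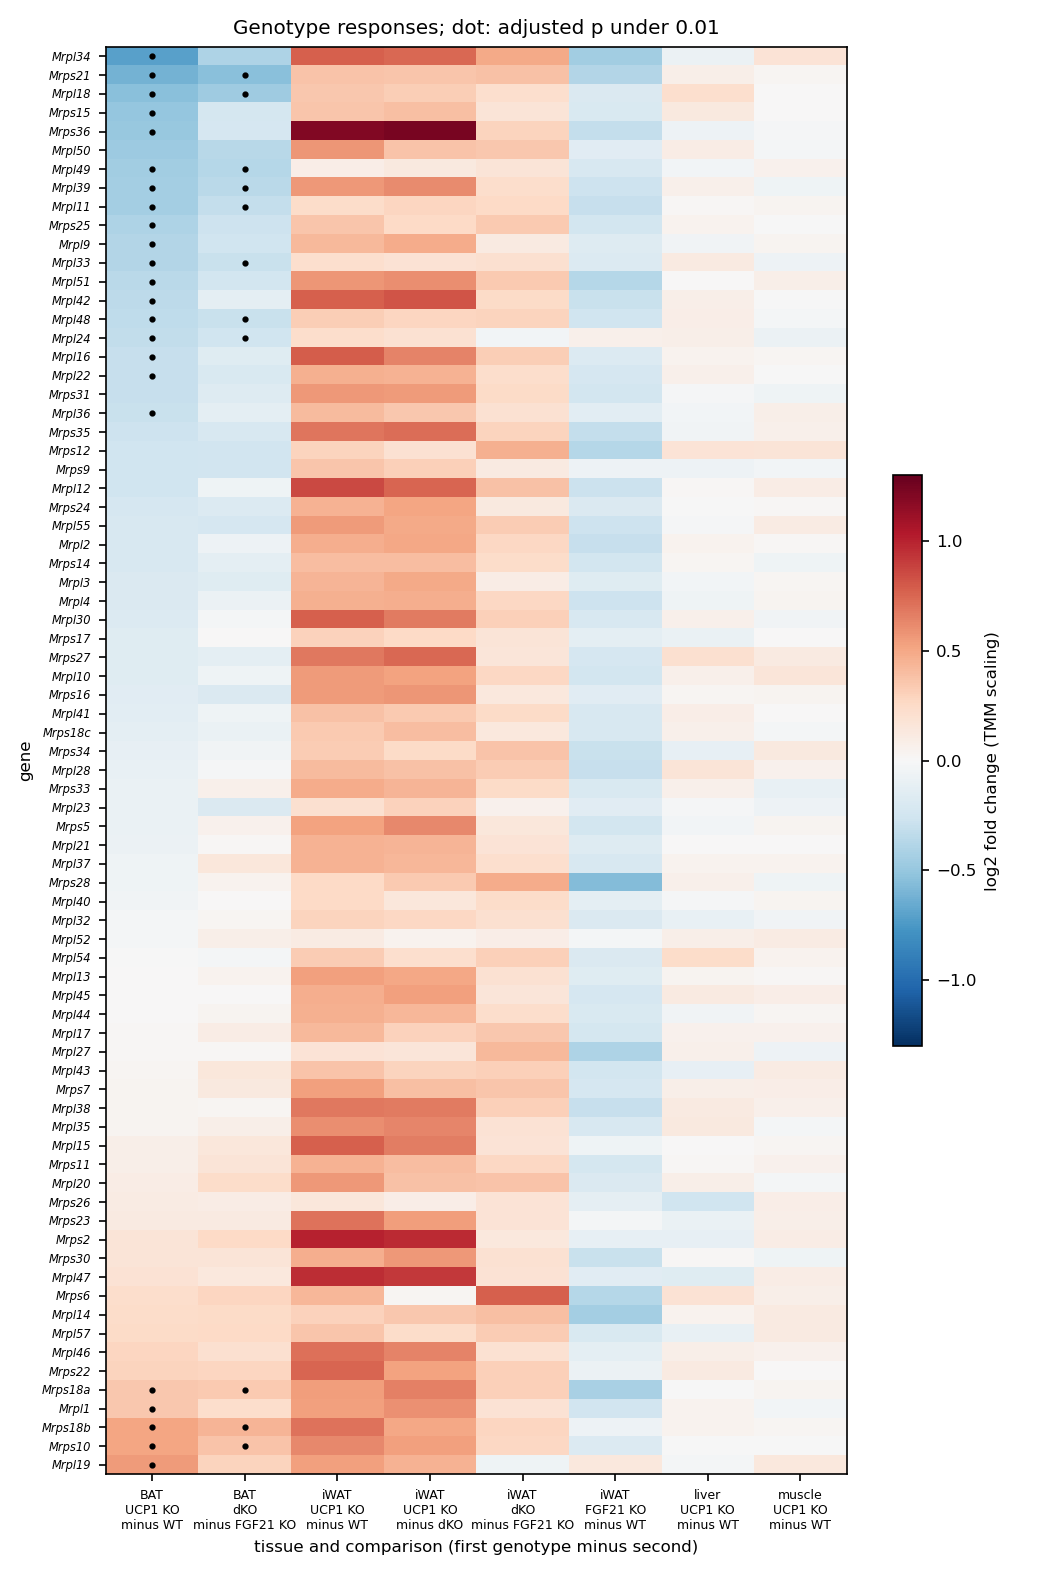
Log2 fold change (TMM scaling) of 76 MRP genes (rows, ordered by the BAT response to UCP1 loss) in 8 comparisons (columns), red for higher and blue for lower in the first genotype, with a dot where the edgeR adjusted p is under 0.01. BAT holds falls at the top and rises at the bottom in UCP1 KO and dKO, iWAT of UCP1 KO is red for 76 of 76 genes without a dot, and liver and muscle are pale.

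The response to UCP1 loss differed between depots for 25 of 76 members, all lower in BAT than in iWAT (all 17004 genes tested, 3.99% lower), and 0 were higher (2.31%). The test was the difference of both differences in one edgeR model over the 40 fat libraries, with 56 members at an unadjusted p under 0.05 and a median of -0.55 (all genes 0.05). Of the 25, 22 had a negative log2 fold change in BAT and a positive one in iWAT. Of the members named elsewhere, Mrps36 had a difference of -1.67 (edgeR adjusted p = 0.000133), Mrpl34 of -1.47 (edgeR adjusted p = 0.000127) and Mrpl18 of -0.88 (edgeR adjusted p = 9.22e-05). Mrpl42, a large subunit protein with no bacterial counterpart, had -1.10, as did the stalk gene Mrpl12 (-1.10), and Mrpl16 had -1.07, Mrpl39 -0.99, Mrps21 -0.97 and Mrps15 -0.85.

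The 25 (all genes 679 lower) became 47 without iWAT UCP1 KO library 2 (1041), 16 without iWAT UCP1 KO library 5 (519), and 50 in the iWAT libraries with a low lymph node score (1369). With totals alone 12 were lower and 2 higher (all genes 335 and 2463), at a median of -0.10 for the family and 0.50 for all genes, a gap of -0.59.

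**Figure D5:**
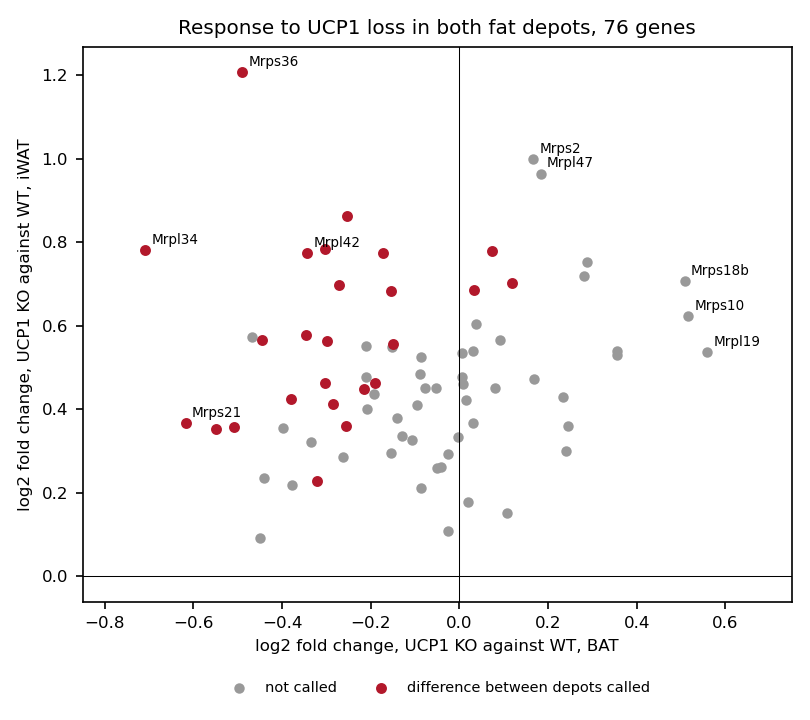
Log2 fold change of UCP1 KO against WT in BAT (x axis) and iWAT (y axis) for 76 MRP genes, with TMM scaling and genes in red where the difference between depots passed an edgeR adjusted p under 0.01. All points lie above 0 in iWAT, 49 of them left of 0 in BAT, and Mrps36 and Mrpl34 are farthest to the upper left.

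The members with the widest gap between BAT and iWAT in WT mice tended to have the larger values for UCP1 KO against dKO in iWAT (Pearson r = 0.88, Spearman rho = 0.85 over 76 genes, 0.86 and 0.84 without Mrps36; all 16505 genes tested in both, 0.35 and 0.53). These comparisons share no library. Between both comparisons of UCP1 loss in iWAT r was 0.07 over the members (all genes 0.12), although 74 of 76 had the same sign, and between UCP1 KO against WT in BAT and in iWAT it was 0.11 (all genes 0.16).

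In liver and muscle 0 MRP genes were called in any of the 6 comparisons of each tissue by edgeR or DESeq2. For UCP1 KO against WT the share of all genes called was 0.0694% in liver and 0.0265% in muscle. For the others in liver it was 0.00694% (dKO against FGF21 KO and UCP1 KO against dKO), 0.229% (FGF21 KO against WT), 0.0416% (dKO against WT) and 0% (interaction). In muscle it was 0.0595% for dKO against FGF21 KO, 0.00662% for FGF21 KO against WT, 0.0529% for dKO against WT and 0% for UCP1 KO against dKO and the interaction. For UCP1 KO against WT 3 members in each tissue had an unadjusted p under 0.05. In the other comparisons there were 0 to 3 in liver, and in muscle 16 for UCP1 KO against dKO (15 of them higher), 6 for FGF21 KO against WT (0 higher, smallest edgeR adjusted p = 0.0593) and 2 to 4 for the rest. In the UCP1 KO against WT contrast of liver the smallest p values belonged to Mrps27 (log2 fold change 0.21), which binds RNA in the small subunit, Mrpl54 (0.24) and Mrps26 (-0.26). In that of muscle they belonged to Mrps27 (0.12), Mrpl10 (0.15), which anchors the stalk, and Mrps7 (0.09). The members varied little between muscle libraries, with median coefficients of variation of 5.24 to 6.28% against 7.03 to 12.2% in liver.

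Among the subunit classes in BAT, UCP1 KO against WT gave 2 higher and 9 lower of 29 large subunit genes conserved from bacteria, and 1 and 5 of 20 specific to mitochondria, where all genes gave 13.8% higher and 11.4% lower. The small subunit gave 1 and 2 of 16 conserved genes and 1 and 1 of 10 specific ones. The rises in the specific classes were Mrps18a (large subunit) and Mrps18b (small subunit), which with Mrps18c descend from a shared bacterial protein. Of 6 mitoribosome subunits with other symbols, Gadd45gip1 fell (-0.48). Of 16 mitochondrial translation factors, the elongation factor Tufm (-0.50) and Gatb (-0.36), a subunit of the enzyme that makes glutaminyl-tRNA, fell.

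The mitoribosome assembly list had 1 rise in 20, the RNA-binding Fastkd2 (0.25), and 2 falls, Rbfa (-0.33) and Mtg2 (-0.23). Among the mitochondrial tRNA synthetases, 17 in all with a median of 0.01 and 9 above 0, the called ones given here are Ears2, which rose (0.61), and Iars2, which fell (-0.38). Of 14 genes of mitochondrial DNA expression Hsd17b10 fell (-0.79), a dehydrogenase that is also part of mitochondrial RNase P. Of 9 biogenesis regulators Myc (1.85) and Nrf1 (0.57) rose and the coactivator Ppargc1b fell (-0.90), and Ppargc1a was not called (-0.15). By comparison, 2 nuclear respiratory chain and ATP synthase genes of 82 rose and 42 fell (median -0.33), and cytosolic ribosomal protein genes gave 2 and 4 of 79 (median -0.01).

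In iWAT, UCP1 KO against WT called 2 of 82 respiratory chain genes, the muscle and brown fat isoform Cox7a1 (3.56) and Cox5a (1.41), at a median of 0.88, where 0.61% of all genes were called. The cytosolic ribosomal protein genes had a median of -0.14 with 0 of 80 called. Around the mitoribosome, Ptcd3 (0.95) of 6 subunits with other symbols, Cars2 (0.62) of 17 synthetases, the mitochondrial RNA stabilizer Lrpprc (1.01) of 14 genes of mitochondrial DNA expression and the receptor Esrra (0.92) of 9 biogenesis regulators rose. Of the assembly list 0 of 20 were called, and 0 of 16 translation factors were called, at a median of 0.43 with 11 at an unadjusted p under 0.05. Ppargc1a stood at 1.46 (edgeR adjusted p = 0.0694). The depot difference called 63 respiratory chain genes of 82 lower and 1 higher (median -1.25), 8 of the 16 translation factors lower, and 0 cytosolic ribosomal protein genes, where all genes gave 2.31% higher and 3.99% lower.

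Neighbours that start head to head with a member were compared with it. Of the 28 such neighbours tested that were not members, 9 were called in BAT between UCP1 KO and WT, where all genes gave 13.8% higher and 11.4% lower, and 18 had the sign of their member. In iWAT 18 were above 0, with a median of 0.07 against 0.43 for their members and -0.03 for all genes. No MRP gene lay within 10 Mb of Ucp1 or Fgf21, where sequence of the parental strain can travel with a targeted gene, the nearest being Mrpl34 at 11.8 Mb from Ucp1 and Mrps12 at 16.9 Mb from Fgf21.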

How the data were processed

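The authors aligned paired reads with STAR to mm10 and counted them per UCSC known gene with HTSeq-count. The deposited values are raw counts per gene, not normalized, and the sources used here do not give its strand setting. The assignment of reads to near-identical or overlapping genes is therefore uncertain. A row of unnamed reads (at most 3.42e-05% of a library) was left out. Groups came from the tissue and genotype labels. Nothing there says more of the replicates than that they are separate samples, so p-values measure the spread between these samples.

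Per tissue, genes with a highest count above 15, a sum above 75 and at most 10 libraries at 0 were kept, scaled with TMM and fitted with edgeR 4.0.16 (R 4.3.3) as 1 mean per genotype over 20 libraries. The quasi-likelihood F test was called at a Benjamini-Hochberg adjusted p under 0.01 over all genes tested. The 20 WT libraries and the 40 fat libraries were fitted likewise across tissues. Alternatives included RLE factors, DESeq2 1.42.0, other filters, covariates and leaving out each library. Library size alone, and low lymph node scores for the depot and tissue differences, were added after seeing the data. CPM in the text are TMM-scaled, except marker sums, and use library totals of 28691377 to 50380696. Exon lengths are GENCODE M21, and correlations across genes are descriptions. The script was tested on simulated data.

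Named genes were, in BAT and between tissues, up to 10 rises and 10 falls among called members without overlap, of which the text gives a part; elsewhere, the called members or the 3 with the smallest p; in each WT tissue, the 3 highest and lowest per kilobase; genes near Ucp1 or Fgf21; Mrps18a, Mrps18b, Mrps18c, Mrpl12, Mrps30 and Mrps36; and up to 5 called genes of each other list, where the respiratory chain and cytosolic lists in BAT are given as counts and 1 called gene of another list is not reported here. Mrps6, Mrpl53 and genes shown with their promoter were also named. Members and lists were chosen with earlier results of these data known.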

Additional observations from a re-analysis of the deposited data

Results flagged for a closer look

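Of 132 groups of 5 libraries tested with Dixon's criterion (critical value 0.71), 14 held a library far from the other 4, where chance gives about 1 in 20. In iWAT, FGF21 KO library 2, the one of its group with a low lymph node score, was highest for the summed CPM of the family (2777), Mrpl47 (12.7 CPM), Mrps2 (29.0), Mrps23 (38.8) and Mrps36 (15.7), and WT library 2 was highest for Mrpl47 (13.5). In BAT, FGF21 KO library 5 was highest for the share of counts (0.428%), Mrpl33 (50.2 CPM) and Mrpl42 (180.4), FGF21 KO library 2 for Mrpl19 (34.3), FGF21 KO library 1 stood apart for Mrpl9 (95.4), and WT library 5 was highest for Mrps21 (65.7). Mrps27 stood apart in FGF21 KO library 2 of liver (36.7 CPM) and FGF21 KO library 4 of muscle (28.5).

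The response to UCP1 loss differed between BAT and iWAT for 25 members by the test of the difference itself. Other called members, such as Mrpl12 (-1.10) and Mrpl16 (-1.07), lay outside the 9 called members that the rule for named genes had given in BAT or iWAT. The log2 differences (BAT minus iWAT) of those 9 were Mrps36 (-1.67), Mrpl34 (-1.47), Mrpl42 (-1.10), Mrpl39 (-0.99), Mrps21 (-0.97), Mrpl18 (-0.88), Mrps15 (-0.85), Mrpl9 (-0.79) and Mrps23 (-0.56).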

How the results depend on the processing

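At an adjusted p under 0.05, UCP1 KO against WT in BAT gave 9 higher and 28 lower (all genes 3426 and 2969). At that threshold dKO against FGF21 KO gave 7 higher and 12 lower, and dKO against WT 28. The depot difference gave 44 lower (all genes 1300). iWAT gave 12 higher for UCP1 KO against WT (all genes 402) and 8 against dKO (all genes 341). With library size alone these were 29 and 3 in BAT (all genes 5235 and 455) and 28 and 2 for dKO against FGF21 KO (2722 and 274). They were 29 for dKO against WT and 2 higher and 12 lower for the depots (all genes 2463 and 335). In iWAT they were 7 and 5 (all genes 213 and 177 higher). The family medians turned to 0.19 (UCP1 KO against WT) and 0.20 (dKO against FGF21 KO) in BAT. DESeq2 gave 5 higher for dKO against FGF21 KO in BAT, and 18 and 15 in iWAT (all genes 545 and 434 higher). Fitting only the genotypes compared left 10 lower for UCP1 KO against WT in BAT (all genes 1120). The skeletal muscle score as a covariate left 2 lower for dKO against FGF21 KO (all genes 535) and 6 called for dKO against WT. No count of all genes is given here for dKO against WT, or for dKO against FGF21 KO where none stands beside it. In iWAT, RLE factors gave 2 against WT, the lymph node covariate 23 and 31, and libraries with a low score 21 and 1, with a median of -0.073 for dKO against FGF21 KO, 11 against WT when library size alone was added, and 50 lower for the depots. With RLE factors, all genes gave 132 higher for UCP1 KO against WT in iWAT. The cause of these shifts was not tested, beyond the smaller number of libraries and the looser threshold.

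Leaving out single libraries moved the count of lower members in BAT between 11 and 29 for UCP1 KO against WT (all genes 2155 at 29). For dKO against FGF21 KO it moved between 4 (all genes 823) and 11, the latter without UCP1 KO library 1. The depot difference moved between 16 and 47 (all genes 519 and 1041). In iWAT the counts moved between 0 and 12 against WT (all genes 345 at 12) and 0 and 15 against dKO (333 at 15). The median of dKO against FGF21 KO in BAT ranged from -0.050 to 0.0065, the latter without FGF21 KO library 5. Among the values for named genes under an alternative, 57 lost their call, 37 gained one and 2664 kept direction and side.

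No paired analysis was possible because the labels do not link libraries of the same mouse. The main limits are the spread between iWAT libraries, the skeletal muscle and lymph node transcripts in some fat libraries, and the scaling of BAT, where a few abundant rows took different shares of the counts. At 28691377 or more counts per library, the limit a count of 0 allows is at most 0.105 CPM, for reads that the counting assigned to the gene.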
